A study of Homo sapiens with 30 samples.

Results

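The claudin tight junction family was followed through the differentiation of H9, an established line of human embryonic stem cells, towards placode, the embryonic thickening of ectoderm that gives rise to cranial sense organs and ganglia. Members were taken by symbol from the platform annotation: CLDN1, CLDN3, CLDN4, CLDN5, CLDN6, CLDN7, CLDN10, CLDN11 and CLDN12, which make 9 of 13488 genes tested and are read by 11 of 48701 probes. The arrays fell into 10 groups of 3: day 1 and day 3 of differentiation, then days 5, 7, 9 and 11 of an arm labelled NSB and of an arm labelled PIP, which the labels also call Placode differentiation. All 30 arrays carry H9 total RNA, no further agent or dose is named in the labels, and PIP at a given day was set against NSB at the same day. The labels call the replicates biological without saying that they are separate cultures, so p-values measure only the spread between these samples.

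Claudins are membrane proteins with 4 transmembrane helices that join neighbouring epithelial cells side by side and set which ions pass between them at the tight junction. Some members, among them CLDN1, CLDN3 and CLDN4, are known for sealing this path, while others, among them CLDN10, form channels for ions. Their cytoplasmic tails mostly bind scaffold proteins of the ZO family, and loss of claudins accompanies the turning of an epithelium into mesenchyme. Neuroepithelium is known to lose its tight junctions as the neural tube forms, whereas the surface ectoderm keeps them.

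Per array, the median unnormalised intensity lay between 45.4 and 74.7 and 34.0% to 37.7% of probes were detected, meaning a detection p-value under 0.05. Arrays of a group correlated at 0.988 to 0.998. The 6 arrays of day 9 were the 6 lowest on the third principal component (9.92% of the variance), so day 9 and a processing difference cannot be told apart. Paired sample codes mark each array at day 3 and at day 5 of either arm, and whether these RNAs were pooled is not stated. All 7 tested pluripotency markers were detected on every array up to day 9, and their summed intensity went from 46100 to 48210 on the day 1 arrays to 15430 to 16790 on the day 11 arrays, which checks a stem cell origin but not the line. Levels below are log2 intensities after background correction and quantile normalisation, with means ± SD over 3 arrays. Probes differ in brightness, so levels were compared between groups for 1 gene and never between genes.

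Detection separated the family into 3 sets (heat map of detected arrays). CLDN3, CLDN6, CLDN7, CLDN12 and 2 of the 3 CLDN10 probes were detected on all 30 arrays. CLDN1 was detected on 23, CLDN5 on 25 and CLDN4 on 13. CLDN11 was detected on 3 arrays only, 2 of day 1 and 1 of NSB day 7, and the third CLDN10 probe on 0 arrays, with unnormalised intensities of 33.3 to 53.6. No member gene was undetected throughout, and all 9 passed the filter of detection on at least 3 arrays, CLDN11 with no array to spare. CLDN4, a sealing claudin, was detected on 3 of 3 arrays at day 3 and in PIP at days 7, 9 and 11, on 1 in PIP at day 5, and on 0 of the 3 arrays in each NSB group and at day 1.

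**Figure D1:**
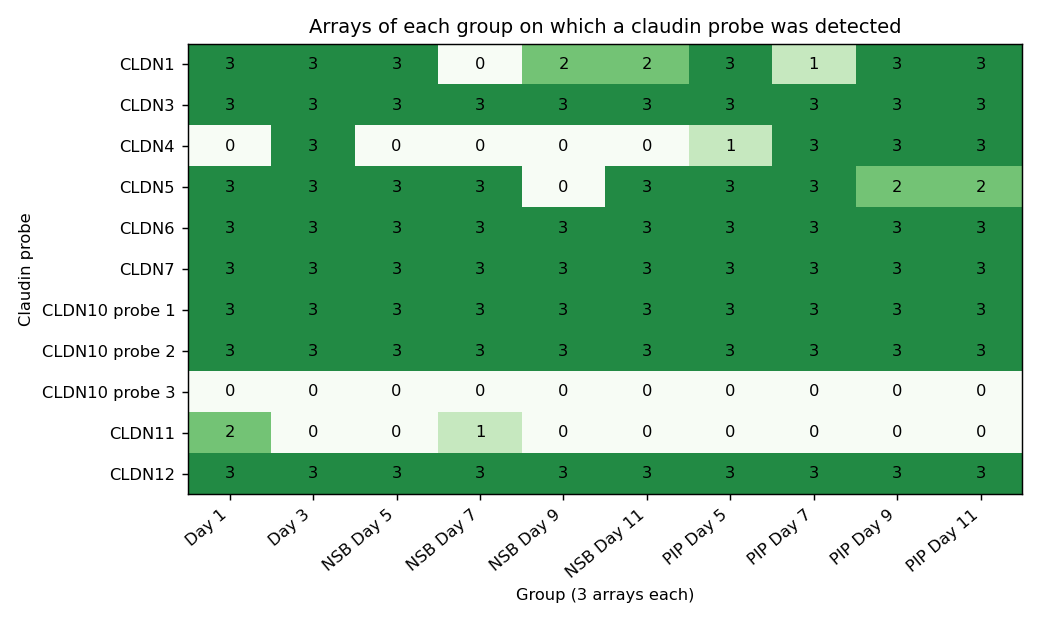
Number of arrays, of 3 in each group (columns), on which each claudin probe (rows) had a detection p-value under 0.05. CLDN4 reads 0 in all 4 NSB groups and 3 in PIP from day 7, and the third CLDN10 probe reads 0 in every group.

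The letters ahead of the genes were read for 8 of the 9 members, whose RefSeq starts (GRCh38.p14) gave 11 windows of 250 bases, and CLDN5 was not read. Searched on both strands were the TFAP2 motif GCCNNNGGC (19.8% of 35116 windows of the same length in all genes), the GRHL motif AACNNGTT (3.0%), the E-box CACCTG (17.5%), the GC box GGGCGG (42.6%) and the TATA motif TATAAA (10.7%). Among the members' windows, 3 of 11 held the TFAP2 motif, 0 the GRHL motif, 1 the E-box, 8 the GC box and 0 the TATA motif, and 0 pairs of different motifs overlapped. The window of 1 of the starts of CLDN7 (chr17:7262479-7262728, minus strand) held the E-box 4 times, at 174, 135, 20 and 9 bases before the start, and 43 of all windows (0.122%) held it 4 or more times. Its other window held none of the 5 motifs. CLDN6 (chr16:3018184-3018433, minus strand) held the TFAP2 motif at 165 bases and CLDN3 (chr7:73770271-73770520, minus strand) at 10 bases before the start, and CLDN12 was the third gene with that motif, at 119 bases. These 3 windows are shown because they carry the matches for genes that later differed between the arms, with the match in capitals, E-boxes in CLDN7 and the TFAP2 motif in the other two.
CLDN7: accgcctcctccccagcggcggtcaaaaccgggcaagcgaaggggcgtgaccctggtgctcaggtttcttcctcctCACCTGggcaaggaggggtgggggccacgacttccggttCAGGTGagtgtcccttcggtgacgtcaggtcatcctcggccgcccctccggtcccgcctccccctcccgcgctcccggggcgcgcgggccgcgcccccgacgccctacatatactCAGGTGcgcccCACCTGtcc
CLDN6: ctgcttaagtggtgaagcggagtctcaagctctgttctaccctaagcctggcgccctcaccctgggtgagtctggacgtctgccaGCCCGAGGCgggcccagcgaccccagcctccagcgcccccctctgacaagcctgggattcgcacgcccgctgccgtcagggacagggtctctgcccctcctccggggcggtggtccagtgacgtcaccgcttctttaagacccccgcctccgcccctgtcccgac
CLDN3: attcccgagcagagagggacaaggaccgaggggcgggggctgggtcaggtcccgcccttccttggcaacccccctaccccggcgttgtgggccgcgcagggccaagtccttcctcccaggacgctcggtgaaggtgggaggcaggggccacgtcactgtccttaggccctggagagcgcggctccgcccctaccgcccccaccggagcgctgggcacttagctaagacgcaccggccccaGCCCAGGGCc
A match of letters is a description of the window, and binding was not measured.

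At day 5 no claudin passed the test between the arms. By day 11, PIP cells carried more RNA than NSB cells of CLDN1, CLDN7, CLDN6, CLDN4, CLDN3 and CLDN10, while CLDN5, CLDN11 and CLDN12 did not pass the test. Of the 9 claudins, 0 were called at day 5, against 5.93% of all genes higher and 5.59% lower, and 0 had an unadjusted p under 0.05. At day 7, 3 were higher and 0 lower in PIP (6.51% and 5.93% of all genes). At day 9, 6 were higher and 0 lower (10.3% and 10.5%), and at day 11 again 6 and 0 (14.2% and 11.4%). Before adjustment, the only claudin with a p under 0.05 on the lower side at these 3 days was CLDN5 at day 7 (-0.24 ± 0.11 SE, adjusted p = 0.19 in limma). The median claudin difference went from -0.10 at day 5 to 0.19, 0.95 and 1.32 at days 7, 9 and 11, beside an all-gene median that stayed between -0.017 and 0.0027. Calls are at an adjusted p under 0.05 by limma's moderated test with Benjamini-Hochberg adjustment over 13488 genes. In bulk RNA, fewer cells with a transcript and less of it per cell cannot be told apart.

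**Figure D2:**
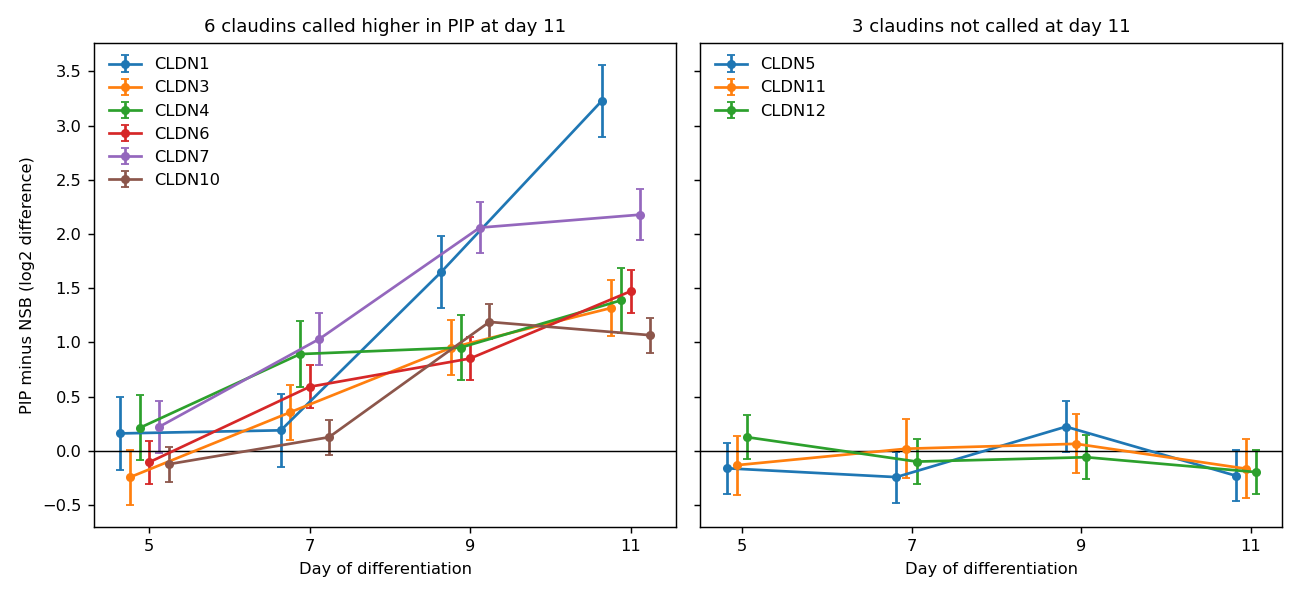
PIP minus NSB log2 difference of each claudin (points, shifted sideways for clarity) at days 5, 7, 9 and 11 with 95% confidence intervals. All intervals at day 5 include 0, and at day 11 those of CLDN1, CLDN3, CLDN4, CLDN6, CLDN7 and CLDN10 lie above it, from 1.07 for CLDN10 to 3.23 for CLDN1.

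CLDN1, the main barrier claudin of the skin, had the widest gap of the 9 members. At day 11 its unnormalised intensity was 418, 524 and 434 on the PIP arrays and 84.2, 93.5 and 59.1 on the NSB arrays. On the log2 scale these arrays read 8.53, 8.89 and 8.84 in PIP and 5.51, 5.94 and 5.13 in NSB, where 2 of 3 were detected. The groups stood well apart, although the NSB arrays lay near the limit of detection. The difference was 3.23 ± 0.16 (SE, 95% interval 2.89 to 3.56, adjusted p = 3.4e-15 in limma), or 9.37-fold. It did not pass the test at day 7, at 0.19 (-0.15 to 0.52), and was 1.65 (1.32 to 1.98) at day 9.

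CLDN7, an epithelial claudin that binds EPCAM, already differed at day 7. Its level at day 7 was 9.95, 9.85 and 9.99 on the PIP arrays and 9.14, 8.57 and 8.99 on the NSB arrays, which did not overlap. At day 9 it was 10.58, 10.59 and 10.61 in PIP against 8.56, 8.68 and 8.36 in NSB, and at day 11 it was 9.72, 9.99 and 10.04 against 7.56, 7.70 and 7.94. Every PIP array was above every NSB array at these 3 days. The same held narrowly at day 5 (lowest PIP array 10.351, highest NSB array 10.342), where the difference of 0.22 did not pass the test. The differences were 1.03 ± 0.11 (SE), 2.06 ± 0.11 and 2.18 ± 0.11 (adjusted p = 1.3e-07, 3.4e-14 and 8.2e-15 in limma), the last 4.53-fold.

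CLDN6, a claudin of early embryos and pluripotent cells, fell over the time course in both arms and ended lower in NSB. At day 11 the PIP arrays read 8.76, 9.10 and 9.16 and the NSB arrays 7.52, 7.42 and 7.67. PIP was higher at each of days 7, 9 and 11, by 0.59 (0.39 to 0.79), 0.85 (0.65 to 1.05) and 1.47 (1.27 to 1.67), with an adjusted p of 1.0e-12 in limma at day 11.

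CLDN4 was dim throughout. At day 11 its log2 level was 6.01, 6.71 and 6.56 on the PIP arrays and 4.96, 4.94 and 5.21 on the NSB arrays. Since 0 NSB arrays detected the probe, the fold has only a lower bound, at least 2.25-fold higher at day 11, at least 1.54-fold at day 9 and at least 1.49-fold at day 7. The bound sets the mean of the PIP arrays against, on each NSB array, the higher of the probe's own value and the dimmest detected probe. The fitted differences were 0.89 ± 0.15 (SE), 0.95 ± 0.15 and 1.39 ± 0.15 at days 7, 9 and 11 (adjusted p = 5.9e-05, 1.2e-05 and 1.6e-08 in limma).

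CLDN3, whose gene lies next to CLDN4 on chromosome 7, followed a later course. At day 7 its difference of 0.36 (0.10 to 0.61) had an adjusted p of 0.059 in limma, and 0.49 with an adjusted p of 0.0085 without NSB day 7 replicate 1. Over 18 settings the day 7 difference ran from 0.21 to 0.52, and 5 of them called it, so its absence at day 7 is not firm. It was 0.95 (0.70 to 1.21) at day 9 and 1.32 (1.06 to 1.57) at day 11, 2.49-fold, with 9.44, 9.72 and 9.55 on the PIP arrays and 8.26, 8.33 and 8.17 on the NSB arrays. The arms did not overlap at days 9 and 11.

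CLDN10, a channel-forming claudin whose transcripts start at separate first exons, showed no called difference at day 7 (0.13, -0.04 to 0.29) and 1.19 (1.03 to 1.35) at day 9. At day 9 the PIP arrays read 10.10, 10.18 and 10.18 and the NSB arrays 8.88, 9.05 and 8.96. At day 11 the difference was 1.07 (0.91 to 1.23, adjusted p = 1.2e-11 in limma). The second CLDN10 probe, tested on its own, gave 0.00 at day 7, 0.81 at day 9 and 1.03 at day 11, and was called at the last 2. Which transcripts each probe reads was not determined.

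CLDN5, CLDN11 and CLDN12 were not called between the arms on any day. At day 11 the intervals of CLDN5 and CLDN12 were -0.46 to 0.01 and -0.40 to 0.01. For CLDN12, differences of the size seen in the 6 called members lie outside its interval. CLDN5 lay near the limit of detection, with detection p-values of 0.023 to 0.042 in NSB and 0.035 to 0.056 in PIP. Since differences of dim genes are understated, its interval does not exclude a larger difference in RNA. CLDN11 was detected on 0 arrays of either day 11 group, so its value there bounds no difference. With median scaling on detected probes, CLDN5 (-0.48, adjusted p = 0.016 in limma) and CLDN11 (-0.53, adjusted p = 0.018) were called lower in PIP at day 11. CLDN12 differed by -0.20 and by -0.30 (adjusted p = 0.036 in limma) without PIP day 11 replicate 1. The arrays of the arms overlapped at day 11 for all 3.

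The change of the arm difference from day 5 to day 11 was tested directly. It was positive for 6 of the 9 claudins and negative for 0, against 11.5% and 8.47% of all genes, and the 6 were the genes called at day 11. Among them, CLDN4 was no longer called with median scaling on detected probes (0.67, adjusted p = 0.053). CLDN12 had an unadjusted p under 0.05 on the negative side (-0.32, -0.61 to -0.03, adjusted p = 0.11 in limma), and was called at -0.43 (adjusted p = 0.030) without PIP day 11 replicate 1. The median change was 1.19 for the claudins and 0.018 for all genes.

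Set against the day 3 arrays, from which both day 11 groups were measured and which both comparisons share, the 6 genes reached their day 11 gap by different routes. In NSB, 9 of 9 claudins were called, 2 higher and 7 lower than at day 3, against 66.0% of all genes called in either direction. In PIP, 7 of 9 were called, 3 higher and 4 lower, against 62.4%. CLDN1 fell by 1.63 on the log2 scale in NSB and rose by 1.60 ± 0.16 (SE) in PIP (adjusted p = 9.3e-10 and 1.5e-09 in limma). CLDN4 was 0.95 ± 0.15 (adjusted p = 2.2e-06) higher in PIP, and in NSB it was called lower at -0.44 (adjusted p = 0.010), a call lost at -0.37 (adjusted p = 0.055) without day 3 replicate 2 and turned to 0.13 by median scaling on detected probes. These were the 2 members called in opposite directions in the arms, with CLDN4 subject to those exceptions.

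CLDN3 fell in NSB, at -1.44 (-1.69 to -1.18), while in PIP it differed from day 3 by -0.12 (-0.37 to 0.14) and did not pass the test. CLDN6 and CLDN7 fell in both arms, by 3.36 and 3.07 in NSB and by 1.89 and 0.89 in PIP (adjusted p of 1.1e-07 or smaller for these 4 in limma). In linear terms CLDN6 was 10.3-fold lower in NSB and 3.71-fold lower in PIP, and CLDN7 8.41-fold and 1.86-fold lower. CLDN10 fell by 1.29 in NSB and differed by -0.22 in PIP (adjusted p = 0.015), a call lost at -0.20 (adjusted p = 0.061) without day 3 replicate 3 and at -0.18 (adjusted p = 0.079) without PIP day 11 replicate 2. The second CLDN10 probe, tested on its own, gave -1.39 in NSB and -0.36 in PIP (adjusted p = 0.0047 in limma for PIP). The gap between the arms for each of these genes is the day 11 difference tested above.

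CLDN12, a broadly used claudin that lacks the usual scaffold-binding tail, was called higher in both arms. It was higher by 0.50 ± 0.10 (SE, adjusted p = 8.3e-05) in NSB and by 0.30 ± 0.10 (adjusted p = 0.010 in limma) in PIP. The PIP call was lost at 0.20 (adjusted p = 0.11) without PIP day 11 replicate 1, and median scaling on all probes gave -0.17 in NSB and 0.016 in PIP. CLDN5 fell by 1.59 in NSB and 1.82 in PIP. CLDN11 was called higher in NSB (0.37, adjusted p = 0.016) although 0 arrays of either group detected it, so no fold is given, and the call was lost without day 3 replicate 1 (0.34, adjusted p = 0.051) or NSB day 11 replicate 1 (0.33, adjusted p = 0.060).

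**Figure D3:**
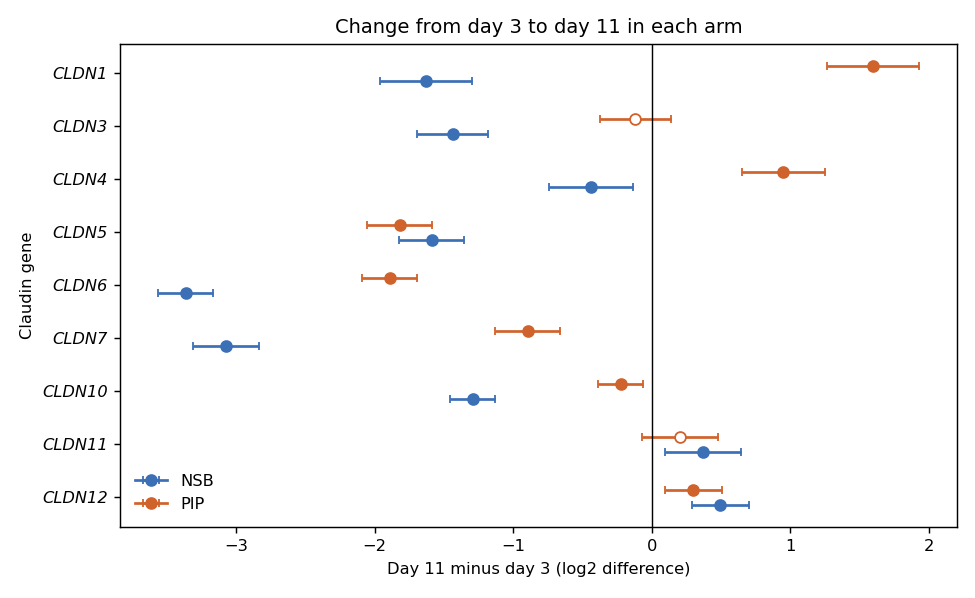
Log2 difference of day 11 from day 3 for each claudin in NSB and in PIP, with 95% confidence intervals, open points marking differences that did not pass the test. CLDN1 lies at -1.63 in NSB and 1.60 in PIP, CLDN6 and CLDN7 lie below 0 in both arms, and CLDN5 lies at -1.59 and -1.82.

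Before the arms were labelled apart, day 3 against day 1 moved a different selection of the family. CLDN3, CLDN4, CLDN5, CLDN6 and CLDN7 were called higher at day 3 and CLDN11 lower, and the rises were not ranked between genes. In all 5 were higher and 1 lower, against 29.0% and 25.4% of all genes, with CLDN1, CLDN10 and CLDN12 not called. CLDN3 went from 7.45, 7.35 and 7.49 on the day 1 arrays to 9.78, 9.60 and 9.69 at day 3, a rise of 2.26 ± 0.12 (SE, adjusted p = 6.3e-15 in limma). Day 1 was its lowest group and day 3 its highest. CLDN6 rose by 0.61 (0.41 to 0.80) and CLDN4 by 0.65 (0.35 to 0.95), at least 1.16-fold since 0 day 1 arrays detected it. The CLDN4 call was lost at 0.31 (adjusted p = 0.14) with median scaling on detected probes. CLDN7 was called at 0.27 (adjusted p = 0.045), with an adjusted p between 0.072 and 0.10 without each of the 6 arrays in turn. CLDN10, at 0.16 (adjusted p = 0.087), was called at 0.22 (adjusted p = 0.034) without day 1 replicate 3. CLDN11 was 0.61 lower at day 3, where 0 arrays detected it, and at least 1.09-fold higher at day 1. It passed the filter of 3 arrays only with the 2 day 1 arrays that detected it. Its call here is therefore not independent of that filter and is given as a description.

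CLDN5, the principal claudin of blood vessel endothelium and the blood-brain barrier, peaked at a single time. Its unnormalised intensity was 186, 177 and 179 at day 3 and 86.0, 98.2 and 82.3 at day 1. On the log2 scale day 3 read 7.06, 7.09 and 7.06, above every other array of the series, and the other 9 groups had means between 5.17 and 5.68. The rise from day 1 was 1.44 ± 0.11 (SE, adjusted p = 2.0e-11 in limma), and the falls to day 5 were 1.39 in NSB and 1.55 in PIP. Among other endothelial markers, 5 of 8 were tested, and 1 was higher and 0 lower at day 3 than at day 1 (29.0% and 25.4% of all genes). The 1 was VWF, higher by 1.88 ± 0.11 (adjusted p = 5.6e-14 in limma). The summed intensity of these 5 was 827 to 881 on the day 1 arrays and 948 to 1057 on the day 3 arrays. On every day 3 array 4 of the 5 were detected, and on every day 1 array 3. CDH5, which defines endothelium, was detected on 0 arrays of either day, and ESAM, listed but not tested, on 0 of the 30. Their part in the CLDN5 rise was not tested.

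**Figure D4:**
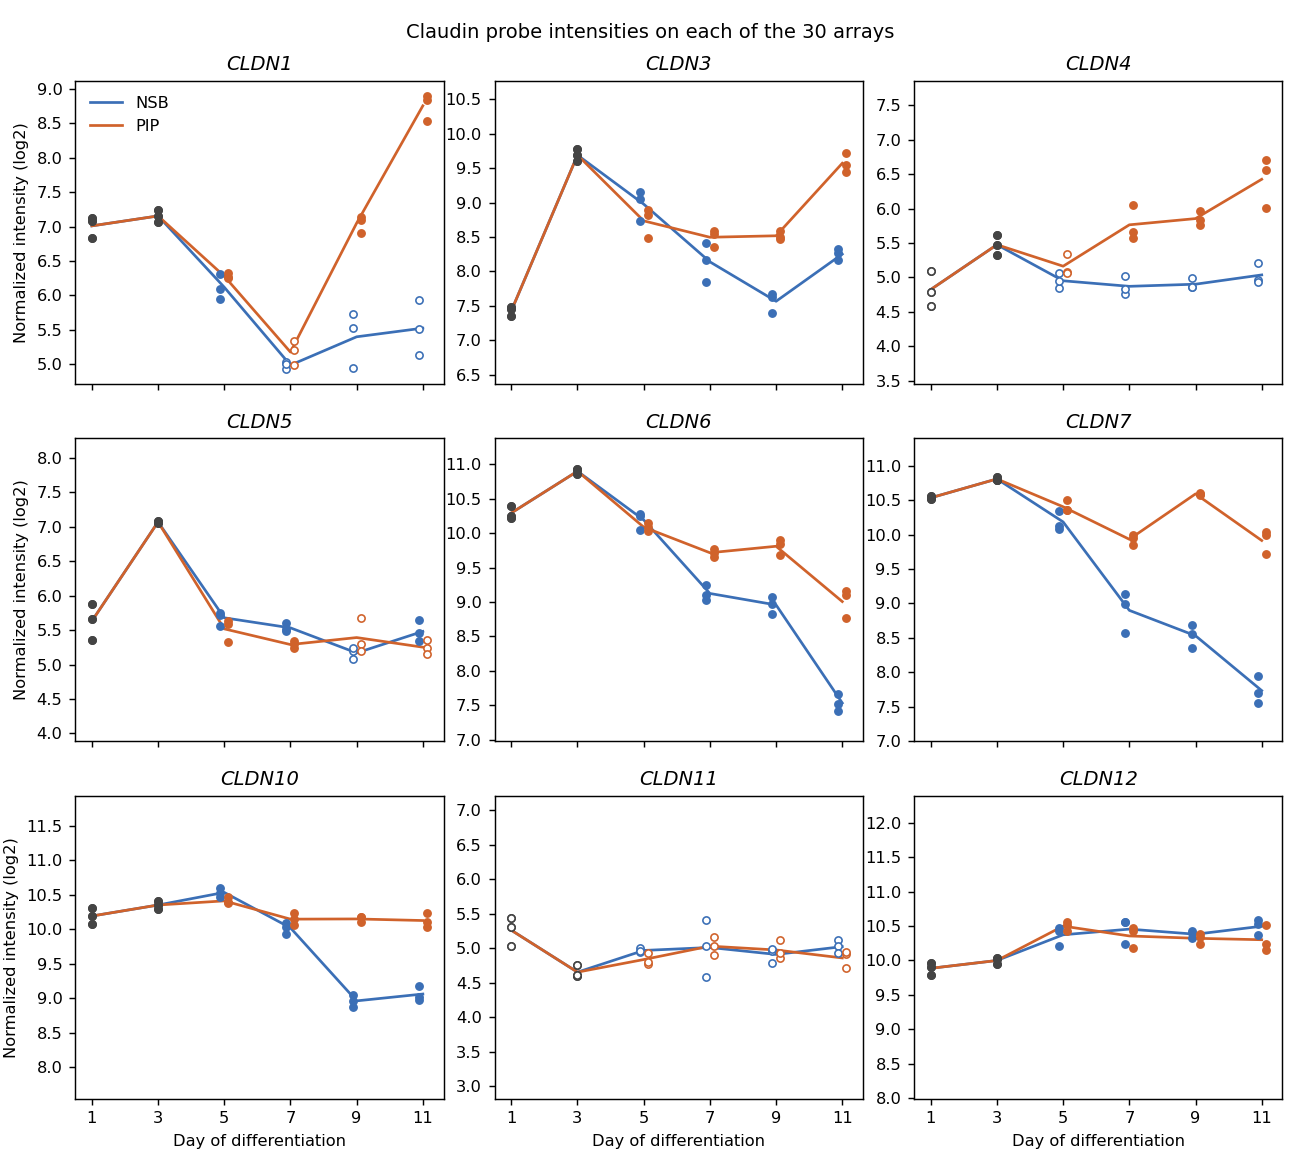
Normalised log2 intensity of each claudin against day of differentiation, 1 panel a gene, each point 1 array and lines joining group means, black for the days shared by both arms. Filled points belong to groups detected on 3 of 3 arrays and open points to groups with fewer; every panel spans the same number of log2 units. Group means of CLDN12, detected on every array, span 0.61, and the lowest groups of CLDN1, CLDN4, CLDN5 and CLDN11 are open because 0 of their arrays were detected.

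The steps between successive days showed when each gene moved. Over 4 steps in each arm, 72 tests gave 11 higher, 28 lower and 33 not called, to be read beside the shares of all genes given for each step below. From day 3 to day 5 each arm had more claudins lower than higher, with 1 higher and 6 lower in NSB (18.5% and 18.3% of all genes) and 1 higher and 5 lower in PIP (21.4% and 23.0%). CLDN1 fell in both arms at this step and again from day 5 to day 7, by 1.03 and 1.13 in NSB and by 0.87 and 1.10 in PIP. Since 0 NSB arrays detected it at day 7, the fold of the second NSB step has only a bound, at least 1.91-fold higher at day 5. It then rose in PIP, by 1.87 ± 0.16 (SE) from day 7 to day 9 and by 1.70 ± 0.16 from day 9 to day 11 (adjusted p = 2.4e-10 and 1.5e-09 in limma), to a day 11 level above every earlier array. In NSB the step from day 7 to day 9 was called at 0.41 (adjusted p = 0.039), but not without any 1 of the 3 NSB day 7 arrays or NSB day 9 replicates 1 or 3 (adjusted p = 0.059 to 0.26). From day 5 to day 7, NSB had 0 higher and 5 lower claudins (20.1% and 22.6%) and PIP 1 higher and 4 lower (16.6% and 16.9%), the 1 higher being CLDN4 at 0.60 ± 0.15 (adjusted p = 0.0020).

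From day 7 to day 9 NSB had 1 higher and 4 lower (23.0% and 24.7%) and PIP 2 higher and 0 lower (22.5% and 23.9%). CLDN10 fell by 1.06 ± 0.08 (SE) in NSB and differed by 0.00 (-0.16 to 0.16) in PIP. CLDN7 rose by 0.66 (0.42 to 0.89) in PIP at this step. From day 9 to day 11 NSB had 2 higher and 2 lower (24.6% and 26.6%) and PIP 3 higher and 2 lower (23.9% and 23.7%). CLDN6 and CLDN7 fell in both arms at this last step, CLDN6 by 1.42 in NSB and 0.80 in PIP and CLDN7 by 0.80 in NSB and 0.68 in PIP. CLDN3 rose by 1.05 (0.80 to 1.31) in PIP and by 0.69 (0.43 to 0.94) in NSB, but the NSB rise became 0.23 and was not called when arrays were scaled to the median of all probes (adjusted p = 0.23). All steps into and out of day 9 rest on the arrays that stood apart, while the day 11 differences between arms compare none of these arrays.

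Ordered by mean, the 10 groups of each gene were also compared with their neighbours. The same count was not made over all genes, so the overlaps are a description and not a trait of the family. For CLDN7, 2 of 9 pairs of neighbouring groups overlapped in their arrays, for CLDN6 5, for CLDN1 and CLDN3 6, for CLDN10 7, and for CLDN4, CLDN5, CLDN11 and CLDN12 8. Day 3 was the highest group for CLDN3, CLDN5, CLDN6 and CLDN7, PIP day 11 for CLDN1 and CLDN4, NSB day 5 for CLDN10, PIP day 5 for CLDN12 and day 1 for CLDN11. NSB day 11 was lowest for CLDN6 and CLDN7 and NSB day 9 for CLDN5 and CLDN10. The distance from the highest to the lowest group was 3.76 for CLDN1, 3.36 for CLDN6, 3.07 for CLDN7, 2.26 for CLDN3, 1.90 for CLDN5, 1.60 for CLDN4, 1.57 for CLDN10 and 0.61 for CLDN11 and for CLDN12. The lowest groups of CLDN1 (NSB day 7), CLDN4 (day 1), CLDN5 (NSB day 9) and CLDN11 (day 3) had 0 arrays detected, so these distances were not ranked between genes.

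Of 14 other claudins listed, 7 were tested, and 5 (CLDN8, CLDN16, CLDN17, CLDN22 and CLDN25) were detected on 0 arrays. At day 11, 3 of the 7 were higher in PIP and 1 lower (14.2% and 11.4% of all genes). CLDN23 was higher by 1.21 ± 0.08 (SE, adjusted p = 2.7e-12 in limma), with 8.59, 8.64 and 8.51 on the PIP arrays and 7.15, 7.57 and 7.41 on the NSB arrays. CLDN9, whose gene neighbours CLDN6 on chromosome 16, was higher by 0.82 ± 0.17 (adjusted p = 3.7e-04), at least 1.37-fold as 0 NSB arrays detected it. A second CLDN9 probe, detected on 1 array of the series and on 0 of PIP day 11, was not tested. CLDN19, a claudin of the kidney tubule, was higher by 0.62 ± 0.12 (adjusted p = 3.2e-04), with 1 of 3 NSB arrays detected. CLDN14, a claudin of the inner ear, was lower by 0.40 (adjusted p = 0.0053). CLDN16, next to CLDN1 on chromosome 3, was among those never detected.

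Partners of the claudins at the junction split. Of 29 listed scaffold, adhesion and polarity genes 22 were tested, and at day 11 6 were higher, 4 lower and 12 not called (14.2% of all genes higher and 11.4% lower), with a median of 0.14. ILDR1, a protein of tricellular junctions, was higher by 1.98 ± 0.14 (SE, adjusted p = 2.7e-12 in limma), at least 3.09-fold, with 6.79, 7.02 and 6.84 on the PIP arrays and 0 NSB arrays detected. MARVELD3, a relative of occludin, was higher by 1.78 ± 0.10 (adjusted p = 9.7e-14), with 7.69, 7.74 and 7.76 in PIP against 5.91, 5.96 and 5.99 in NSB. CRB3, an apical polarity protein, was higher by 1.55 ± 0.12 (adjusted p = 4.2e-11), at least 2.60-fold, and CGN, the scaffold cingulin, by 0.85 ± 0.14 (adjusted p = 1.9e-05). Occludin itself (OCLN, 0.36 ± 0.15, adjusted p = 0.070) and the ZO scaffold TJP1 (0.17 ± 0.08, adjusted p = 0.11), both named after their values were seen, did not pass the test. The 4 lower genes were JAM2 (-0.82 ± 0.13, adjusted p = 1.6e-05 in limma), JAM3 (-0.35 ± 0.07, adjusted p = 2.8e-04), LSR (-0.27 ± 0.09, adjusted p = 0.032) and PALS1 (-0.25 ± 0.09, adjusted p = 0.049). Of the 22 tested partners, 5 were called at day 5, 3 higher and 2 lower in PIP (5.93% and 5.59% of all genes). Higher were PRKCI (0.51 ± 0.13, adjusted p = 0.0115 in limma), MARVELD3 (0.47 ± 0.10, adjusted p = 0.0032) and CRB3 (0.39 ± 0.12, adjusted p = 0.034). Lower were MPDZ (-0.41 ± 0.08, adjusted p = 0.0018) and PRKCZ (-0.36 ± 0.12, adjusted p = 0.043).

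**Figure D5:**
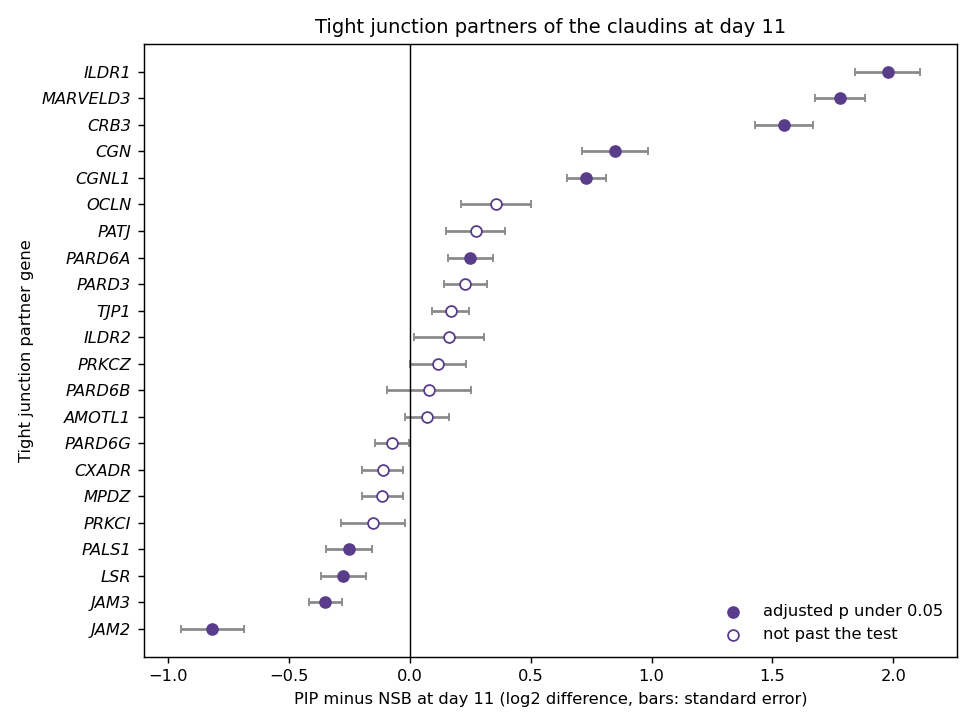
PIP minus NSB log2 difference at day 11 of the 22 tested tight junction partners, with standard errors as bars, filled where the adjusted p was under 0.05. ILDR1, MARVELD3 and CRB3 lie above 1.5, TJP1 and OCLN are not called, and 4 genes are called lower.

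Markers of several cell classes also differed between the arms. At day 11, 14.2% of all genes were higher and 11.4% lower in PIP, shares that stand beside each day 11 count here. All 8 simple epithelial markers were called higher in PIP than in NSB at day 11, with a median of 0.81. Their summed intensity was 15930 to 18640 on the PIP arrays and 8834 to 10010 on the NSB arrays. CDH1, GRHL2 and OVOL1, defining genes of that list, were detected on 0 NSB arrays at days 9 and 11. In PIP at day 11, GRHL2 was detected on 3 of 3 arrays, CDH1 on 2 and OVOL1 on 1. The lower bound was 1.11-fold for CDH1 and 0.91-fold for OVOL1, so that of OVOL1 establishes no rise. All 6 tested non-neural ectoderm and placode markers were higher in PIP, with a median of 2.62 and sums of 5509 to 6449 in PIP and 686 to 872 in NSB, where TFAP2B and GATA3 were detected on 0 arrays. At day 5, when 0 claudins were called, 4 of these 6 were already higher (5.93% of all genes), with a median of 1.02. The day 5 sums were 2236 to 2484 in PIP and 458 to 503 in NSB. Of 7 trophoblast and amnion markers, 5 were higher and 1 lower in PIP, with a median of 1.38. Their sums were 1905 to 2206 in PIP and 2526 to 2625 in NSB, where IGFBP3, the 1 that was lower, differed by -2.07. HAND1, VTCN1, CGB5 and GABRP were detected on 0 NSB arrays and all 7 on every PIP array. Of 7 anterior neural ectoderm markers, 0 were higher and 4 lower in PIP, with a median of -0.61 and sums of 24050 to 24910 in PIP and 31690 to 33690 in NSB. All 7 were detected on every array of both day 11 groups. Their part in the claudin differences was not tested. Of 8 markers of oligodendrocytes, which use CLDN11 in myelin, 4 were tested (MBP, SOX10, MAG and PDGFRA), and OLIG1 and OLIG2 were detected on 0 arrays. At day 11 all 4 were detected on every PIP array and 3 on every NSB array, with sums of 600 to 739 and 377 to 385. MBP was higher in PIP by 1.42 (adjusted p = 4.4e-13 in limma) and SOX10 by 0.71 (adjusted p = 0.0026). MAG (-0.27, adjusted p = 0.16) and PDGFRA (-0.05, adjusted p = 0.81) did not pass the test. The mean of MBP was 8.75 at day 1 and 8.47 in PIP at day 11. The part of these 4 markers in the CLDN11 levels was not tested.

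The genes most like each claudin were ranked by Pearson's correlation over the 10 group means, which share day 1 and day 3 between the arms, as a description. CLDN1 came nearest to GPRC5A (0.917), ALDH1A3 (0.911) and MAN1A1 (0.906). CLDN7 came nearest to PPL (0.988), ACAA2 (0.980) and LAD1 (0.975), of which PPL encodes periplakin, a cytoskeletal linker of epithelia. CLDN6 came nearest to GCDH (0.972), TARS1 (0.967) and SYPL1 (0.961). CLDN3 came nearest to HAPLN3 (0.945), WNT5A (0.934) and FMO1 (0.928), and its neighbour CLDN4 to RARB (0.946), MYF6 (0.939) and EYA2 (0.938). No gene was shared between the nearest 3 of different claudins. CLDN10 came nearest to NMRK1 (0.964), PRSS16 (0.953) and the junction gene MARVELD3 (0.952). CLDN5 came nearest to MRGPRF-AS1 (0.978), SMIM10L2A (0.975) and NTNG1 (0.974), CLDN12 to UHRF2 (0.979), WNK3 (0.972) and C9orf40 (0.965), and the mostly undetected CLDN11 to OR10C1 (0.858), GDPD4 (0.854) and TXNDC12 (0.847).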

How the data were processed

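Total RNA of H9 cells was read on 30 Illumina bead arrays. The authors deposited, per the file headers, an unnormalised mean intensity of the beads, a count of beads, a bead standard error (a signal) and a detection p-value for each probe; per the submitters' processing notes it came from GenomeStudio, with no version given in the sources used here. Median bead counts were 37 to 40, and the number of arrays limits the precision. The authors' deposited processed intensity values served as an alternative.

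Intensities were background-corrected (normexp with detection p-values), raised by 16, quantile normalised and put on the log2 scale (neqc, limma 3.58.1, R 4.3.3), so folds of dim genes are understated. Of the probes, 23687 had 1 gene name, 35 several and 24979 none, and 23651 matched RefSeq by Entrez identifier, with 0 symbols changed. Probes detected on at least 3 arrays were kept, the brightest per gene represented it, and 13488 genes entered a limma fit of 10 group means (20 residual and 6.95 prior degrees of freedom), checked on simulated data. Named were the 9 members, the 4 called genes among the other claudins and among the partners with the largest day 11 differences, and the 3 genes most like each member. The partners lower at day 11 and those called at day 5 were named after their values were seen. The members and lists were chosen with earlier results of these data known. Alternatives were other scalings, background corrections, filters, probe rules, sample sets and a replicate block. 0 pairs of arrays were identical.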

Additional observations from a re-analysis of the deposited data

Results flagged for a closer look

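The PIP against NSB difference changed between day 5 and day 11 for 6 of the 9 claudins, by a test of the change itself (limma, adjusted over all genes). On the log2 scale it grew by 3.07 for CLDN1 (95% interval 2.59 to 3.54), 1.96 for CLDN7 (1.62 to 2.29), 1.58 for CLDN6 (1.30 to 1.86), 1.56 for CLDN3 (1.20 to 1.92), 1.19 for CLDN10 (0.96 to 1.42) and 1.18 for CLDN4 (0.75 to 1.60). The largest adjusted p among these was 1.2e-04, for CLDN4. That gene was no longer called with median scaling on detected probes (0.67, adjusted p = 0.053). At day 5 the differences of these genes lay between -0.24 (CLDN3) and 0.22 (CLDN7). For all of them except CLDN4, nearly the whole measured gap of day 11 thus appeared after that day. CLDN4 was detected at day 5 on 0 NSB arrays and 1 PIP array, so its day 5 value does not bound an earlier gap. CLDN5 (-0.07, -0.40 to 0.26) and CLDN11 (-0.03, -0.42 to 0.35) did not pass the test. CLDN12 (-0.32, adjusted p = 0.11) did so without PIP day 11 replicate 1 (-0.43, adjusted p = 0.030).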

How the results depend on the processing

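Counts of called claudins stayed within 1.5 times under every alternative run. Leaving out single arrays gave 5 to 6 called for day 3 against day 1, 8 to 9 and 6 to 7 for day 11 against day 3 in NSB and PIP, 0, 3 to 4, 6 and 6 to 7 for PIP against NSB at days 5, 7, 9 and 11, 6 to 7 for the change from day 5 to day 11, and 36 to 40 of 72 for the steps. The other alternatives gave 4 to 8, 8 to 9, 7 to 8, 0, 3 to 4, 6, 6 to 8, 5 to 6 and 34 to 41 in the same order. With a replicate block the counts were 5, 9, 7, 0, 3, 6, 6, 6 and 39, so it lost 1 call, CLDN7 in day 3 against day 1 (adjusted p = 0.051). The numbers were not taken to pair the samples, as residuals of arrays with the same number correlated at -0.309 to 0.275, with a mean of -0.009. Reversed values came from scaling or the probe: for NSB day 11 against day 3, CLDN12 at -0.167 (median scaling on all probes) and CLDN4 at 0.130 (median scaling on detected probes), and for NSB day 11 against day 9, CLDN10 at -0.399 and CLDN12 at -0.424 (median scaling on all probes) and CLDN10 at -0.259 on its second probe, an alternative added after seeing the data. The cause was not tested. The growth of the CLDN4 gap from day 5 to day 11 was 0.67 (adjusted p = 0.053) under median scaling on detected probes. Median scaling on all probes shifted the median of all genes by 0.28 at day 11 and by 0.45 in the change, and raised the called genes from 3442 to 5628 and from 2690 to 6248. At day 7 the 1678 called genes became 1081 under that scaling and 782 with only the groups compared. PIP day 7 against day 5 went from 4520 to 2845. PIP against NSB at day 5 went from 1554 to 978 without NSB day 5 replicate 3 and to 875 without PIP day 5 replicate 1, with 0 claudins called each time. The share of called genes that were higher moved with scaling. From 53.3% (day 3 against day 1), 47.4% and 48.7% (NSB and PIP day 11 against day 3), 51.5%, 52.3%, 49.5% and 55.5% (the arms at days 5, 7, 9 and 11) and 57.5% (the change), it went to 78.9%, 17.8%, 32.6%, 15.1%, 81.9%, 37.8%, 94.3% and 97.1% under median scaling on all probes. Under median scaling on detected probes it was 34.6% for the arms at day 11 and 31% for the change. The 6 claudins called between the arms at day 11 were higher in PIP under every setting run, whereas dim probes such as CLDN4 and CLDN11 are limited by signal over background.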
